A study of Mus musculus with 3 samples.

Results

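The unfolded protein response genes examined here were Xbp1, Hspa5, Ern1, Ern2, Atf4, Ddit3, Pdia4, Hsp90b1 and Creb3l1, a list of 9 genes matched by symbol among the 51912 genes counted in single-cell RNA sequencing of mouse intestinal epithelium. All 9 had unique molecular identifiers (UMIs, tags that count captured transcripts) in every library, among 26362 genes that had any. There were 2 Arid3a cKO libraries (VillinCreERT2 with Arid3a fl/fl, replicates 1 and 2) and 1 control library, called WT here, which carried VillinCreERT2 as well. Villin drives the recombinase in the intestinal epithelium, so other cells of the mouse keep the gene. Animals of both groups were given tamoxifen at 8 to 10 weeks of age and harvested 1 month later, counted from the first injection. Intestinal crypts were isolated, dissociated with collagenase and dispase, and sorted for live cells positive for Epcam and negative for CD45 and CD31. The series' design text speaks of 2 biological replicates in each condition, and a second WT library was not analysed here. It does not say whether the replicates came from separate animals, so p-values measure only the spread between these samples, which may be technical. With 1 WT library the genotype cannot be told apart from that library.

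The unfolded protein response adjusts the endoplasmic reticulum (ER) to its load of proteins. IRE1 enzymes sense unfolded protein and splice the mRNA of Xbp1, PERK slows translation and raises Atf4 protein, and ATF6 is cleaved to release a transcription factor. Together they raise chaperones, disulphide isomerases, the degradation machinery and, under lasting stress, Ddit3. In the intestine the pathway is best known from the secretory cells, which fold and export large amounts of mucin, hormones or antimicrobial peptides. Splicing, cleavage and phosphorylation are not visible in these counts, which give only the level of each mRNA.

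The cells kept were 2134, 1550 and 1910 in Arid3a cKO 1, Arid3a cKO 2 and WT, with 70922480, 58169310 and 62694008 UMIs. All values below are given in that order of libraries, as UMIs per 1000000 UMIs (CPM) summed over the cells named. Intervals are exact Poisson or binomial 95% intervals and cover counting error only. The epithelial genes Epcam, Vil1, Cdh1 and Krt8 were present in every library, from 165 to 2437 CPM. Arid3a had 42, 52 and 161 UMIs (0.592, 0.894 and 2.57 CPM), lower in both cKO libraries. Kept cells of different libraries shared at most 2 barcodes. Clustering without the members and the other listed genes of the response gave 13 clusters, which were named after fixed markers as intestinal stem cell (ISC)-, transit-amplifying (TA)-, enterocyte-, goblet-, Paneth-, enteroendocrine- and tuft-like. The 4 clusters that met no marker rule stayed unnamed and held 994 of 5594 cells. Since classes come from the same cells, differences between classes are described and not tested.

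Goblet-like cells, the mucus secretors, held the most Xbp1, Hspa5, Ern2, Atf4, Pdia4 and Creb3l1 by the mean of the 3 libraries. All 9 members were higher in goblet-like than in enterocyte-like cells in each of the 3 libraries, and the same held for enteroendocrine-like cells, which secrete hormones. Tuft-like cells were higher than enterocyte-like cells for 5 members and lower for 3 in every library. By CPM, Paneth-like cells were lower than enterocyte-like cells for 7 of 9 members in every library and higher for 2. CPM is a share of the class's own UMIs, and Paneth-like cells had a median of 119501, 177412 and 127390 UMIs per cell, above the 30933 to 36319.5 of enterocyte-like cells. Per cell they were not low in Xbp1, since 1.59%, 1.10% and 1.52% of cells held 2.42%, 1.46% and 1.76% of its UMIs. Ern2, Atf4, Ddit3 and Creb3l1 were likewise above the share of cells in every library. Hsp90b1 was below that share in every library, at 1.38%, 0.776% and 1.18% of its UMIs. Pdia4 was below it in Arid3a cKO 2 and WT, and Hspa5 and Ern1 were below it in WT. There were only 17 Paneth-like cells in Arid3a cKO 2, under the limit of 20 that had been set for giving values, so Paneth values are an exception made after the data were seen.

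**Figure D1:**
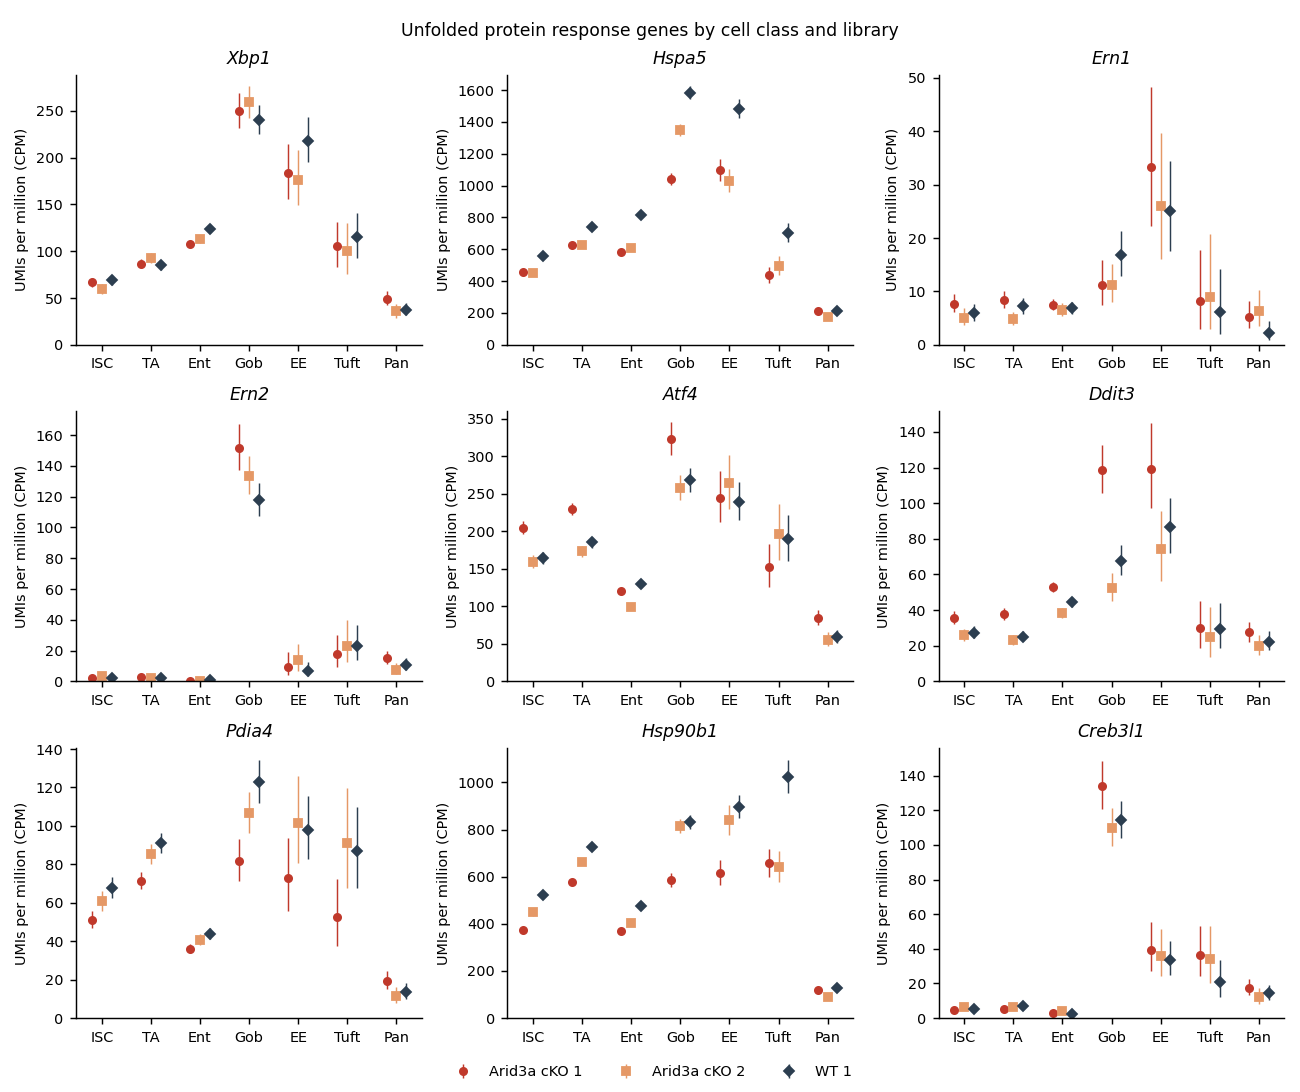
Level of each gene (CPM, linear axis from 0) in ISC-, TA-, enterocyte- (Ent), goblet- (Gob), enteroendocrine- (EE), tuft- and Paneth-like (Pan) cells, 1 point per library with its 95% Poisson interval. Ern2 and Creb3l1 stood far higher in goblet-like cells than elsewhere, with 118 to 152 CPM and 109.7 to 134 CPM. Hsp90b1 was spread across goblet-, enteroendocrine-, tuft- and TA-like cells and was lowest in Paneth-like cells.

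The sensors and their targets differed in how narrowly they were expressed. Ern2, which encodes the IRE1β sensor of mucosal epithelium (ENSMUSG00000030866, protein-coding, chr7:122169893-122186207, minus strand of GRCm38), had 151.7, 133.7 and 117.8 CPM in goblet-like cells. In enterocyte-like cells it had 0.309, 0.246 and 0.675 CPM, from 8, 5 and 14 UMIs. Goblet-like cells thus held 73.6%, 80.0% and 75.1% of all Ern2 UMIs of their library, although they were 5.44%, 7.48% and 7.02% of its cells. When cells were thinned to 5000 UMIs, leaving out shallower ones (9, 4 and 2 goblet-like and 5, 2 and 6 enterocyte-like cells), Ern2 was seen in 54 of 107 (50.5%), 64 of 112 (57.1%) and 65 of 132 (49.2%) goblet-like cells. The same share was 1 of 806 (0.124%), 0 of 586 (which, at 3 counts, allows up to 0.512% of cells with a UMI) and 2 of 675 (0.296%) among enterocyte-like cells. The unthinned shares were 92.2%, 97.4% and 94.0% in goblet-like cells, at median depths of 23753.5, 31111.5 and 26495 UMIs, and 0.617%, 0.510% and 1.03% in enterocyte-like cells, at 32290.0, 36319.5 and 30933 UMIs. By CPM, tuft-like cells came next with 17.6, 23.2 and 23.3 CPM, from 13, 13 and 19 UMIs, without overlap with goblet-like cells. Paneth-like cells, fewer and deeper, held more of the Ern2 UMIs, at 9.75%, 3.17% and 5.84% against 2.35%, 2.17% and 3.17% in tuft-like cells.

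Creb3l1 (ENSMUSG00000027230, protein-coding, chr2:91982328-92024502, minus strand), a membrane-bound transcription factor that is released by cleavage, was likewise highest in goblet-like cells. It had 134, 109.7 and 114 CPM in goblet-like cells and 2.97, 4.13 and 2.12 CPM in enterocyte-like cells. Enteroendocrine-like cells had 39.4, 35.8 and 33.8 CPM, a range that overlapped that of tuft-like cells (20.8 to 36.5 CPM) and not that of goblet-like cells. Goblet-like cells held 49.1%, 53.4% and 54.7% of the Creb3l1 UMIs. Over 18 points (6 classes in 3 libraries, all but Paneth-like), Pearson's r between the log2 levels of Ern2 and Creb3l1 was 0.95, a description in which the points share classes and libraries.

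Ern1 (ENSMUSG00000020715, chr11:106394650-106487852, minus strand, protein-coding), which encodes the widely expressed sensor IRE1α, was highest in enteroendocrine-like cells at 33.4, 25.95 and 25.01 CPM. These values rest on 28, 21 and 37 UMIs. Goblet-like cells followed with 11.2, 11.2 and 16.7 CPM, without overlap. The remaining classes lay between 2.14 and 8.93 CPM and each overlapped its neighbour in the order. The paralogs thus peaked in different classes in every library.

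Xbp1, the transcription factor whose mRNA IRE1 splices (ENSMUSG00000020484, protein-coding, chr11:5520659-5525893, plus strand), was found in every class. It had 249.9, 259 and 240.5 CPM in goblet-like and 184, 177 and 218 CPM in enteroendocrine-like cells. Enterocyte-like cells had 108, 113 and 124 CPM, overlapping tuft-like cells. TA-like cells came next with 86.6, 92.3 and 84.9 CPM, followed by ISC-like cells with 66.9, 59.7 and 69.0 CPM, and by Paneth-like cells with 49.5, 35.8 and 37.7 CPM. None of these last 3 ranges overlapped another.

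Atf4 and Ddit3 belong to the PERK branch. Atf4, a transcription factor of amino acid and stress responses (ENSMUSG00000042406, protein-coding, chr15:80255184-80257541, plus strand), was at 323, 258 and 268 CPM in goblet-like cells and 245, 264 and 239 CPM in enteroendocrine-like cells, which overlapped. Enterocyte-like cells had 119.9, 99.2 and 129 CPM, below the 159.7 to 229 CPM of ISC- and TA-like cells. Ddit3, which encodes the stress factor CHOP (ENSMUSG00000025408, protein-coding, chr10:127290774-127296288, plus strand), was at 119, 52.5 and 67.8 CPM in goblet-like cells and 119, 74.1 and 86.5 CPM in enteroendocrine-like cells. In these classes Arid3a cKO 1 was the highest library for Ddit3, and Arid3a cKO 2 the lowest. Crypt cells had less Ddit3 than enterocyte-like cells (38.1 to 52.8 CPM), at 25.9 to 35.6 CPM in ISC-like and 23.1 to 37.9 CPM in TA-like cells, which overlapped each other.

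The chaperones were spread more evenly. Hspa5 encodes BiP, the main ER chaperone, which also binds the sensors (ENSMUSG00000026864, protein-coding, chr2:34771970-34777547, plus strand). It was at 1042, 1347 and 1584 CPM in goblet-like and 1096, 1029 and 1483 CPM in enteroendocrine-like cells, which overlapped. Enterocyte-like cells had 585, 609 and 816 CPM, a range that overlapped that of TA-like cells (624 to 743 CPM). Hsp90b1 encodes GRP94, an ER chaperone of the HSP90 family (ENSMUSG00000020048, protein-coding, chr10:86690209-86705509, minus strand). The ranges of enteroendocrine-, tuft-, goblet- and TA-like cells overlapped in turn for Hsp90b1, between 579 and 1025 CPM, and ISC-like cells (376 to 521 CPM) overlapped enterocyte-like cells (371 to 475 CPM). Pdia4, a disulphide isomerase of the ER (ENSMUSG00000025823, protein-coding, chr6:47796141-47813430, minus strand), had 81.8, 106.6 and 123 CPM in goblet-like and 71.5, 85.3 and 91.2 CPM in TA-like cells, which overlapped. Enteroendocrine-like (72.8 to 101.3 CPM) and tuft-like cells (52.8 to 91.1 CPM) overlapped both. Enterocyte-like cells had less Pdia4 than any of these classes, with 36.0, 40.7 and 43.8 CPM.

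Hspa5 and Hsp90b1 also share a sequence in their promoters. Promoters were taken from RefSeq (GRCm38.p6), from 250 bases before to 50 after the start of each gene, and 7 of 9 members were matched. Ern2 and Creb3l1 had no promoter there and were not searched. The ER stress response element, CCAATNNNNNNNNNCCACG, which ATF6 and NF-Y are known to bind, was found on either strand in 39 of 32851 promoters (0.119%). Among the members it was found in Hspa5, from 65 to 47 bases before the start, and in Hsp90b1 at 2 places, from 212 to 194 bases before the start and, on the opposite strand, from 107 to 89. These stretches are shown because both genes recur in the comparison below. Both are written along the gene's own strand, with the CCAAT and CCACG parts, or their complements where the match is on the opposite strand, in capitals. They lie at chr2:34772010-34772058 (plus strand) and chr10:86705518-86705671 (minus strand).
Hspa5: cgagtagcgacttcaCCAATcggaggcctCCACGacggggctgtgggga
Hsp90b1: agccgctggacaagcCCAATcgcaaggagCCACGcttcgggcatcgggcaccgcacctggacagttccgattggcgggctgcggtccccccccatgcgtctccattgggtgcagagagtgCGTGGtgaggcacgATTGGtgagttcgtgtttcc
The CCACG part on its own, searched on both strands and overlapping the full element, was in 32.8% of promoters, among them those of Ern1, Atf4 and Pdia4. The letters TGACGTGG, the core bound by XBP1, were in 0.676% of promoters and the letters TGATGCAA, bound by ATF4, in 0.895%, with no match in these windows of the members. A match is a description of letters and not a measured binding site.

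The chaperones also varied within the absorptive cells. The enterocyte-like cells comprised 3 clusters, led by Slc5a12 and Dnase1 (943 cells), by Ms4a18 and Car4 (729 cells) and by Akp3 and S100g (408 cells). Hspa5 was at 773, 828 and 1031 CPM in the Ms4a18-led cluster. It was at 467, 489 and 702 CPM in the Slc5a12-led and 454, 529 and 651 CPM in the Akp3-led cluster. In each library the Ms4a18-led cluster was above both of the others for Hspa5, Hsp90b1, Pdia4, Xbp1 and Atf4. Hsp90b1 had 482, 564 and 630 CPM there against 305, 322 and 396 CPM in the Slc5a12-led cluster, and Pdia4 had 47.6, 60.3 and 61.3 CPM against 26.7, 30.2 and 32.9 CPM. TA-like cells had more Hsp90b1 (579, 662 and 727 CPM) and Pdia4 (71.5, 85.3 and 91.2 CPM) than the Ms4a18-led cluster, and less Hspa5. An unnamed cluster led by genes such as Ccl20, Edn2 and Krt19 (748 cells) held 719, 691 and 849 CPM of Hspa5, between TA-like cells and the Ms4a18-led cluster.

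**Figure D2:**
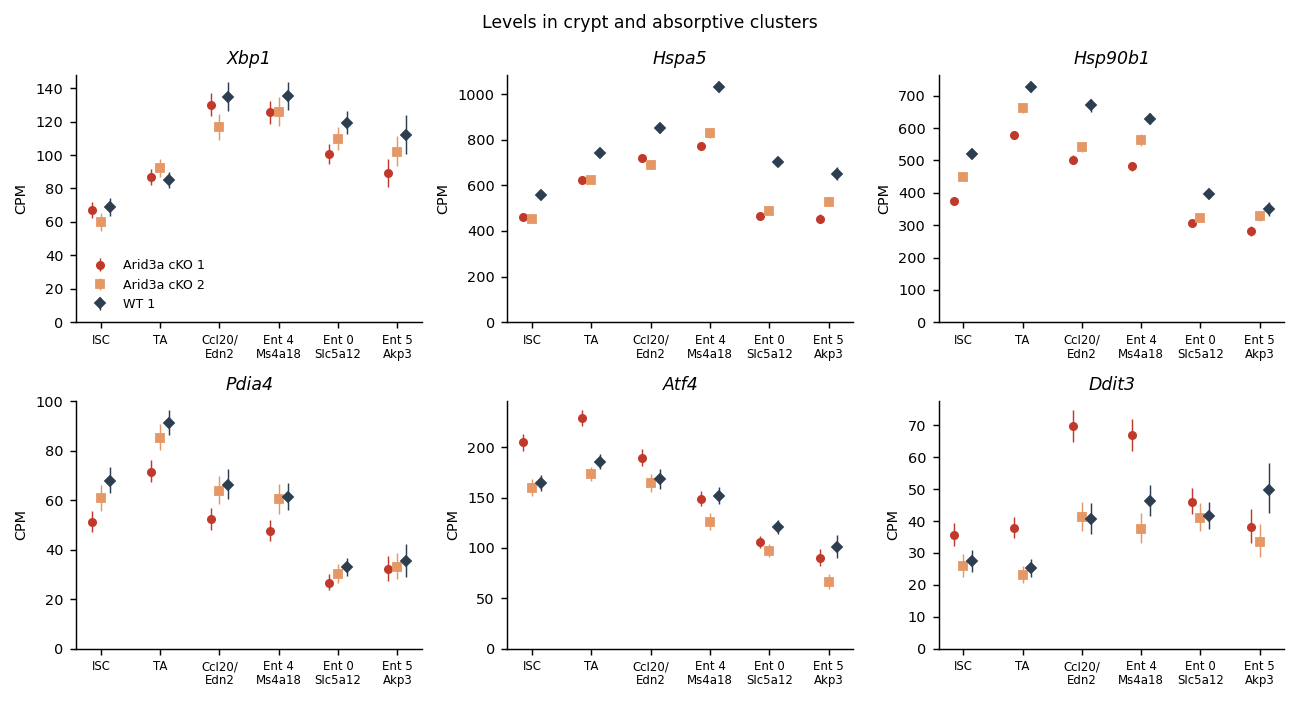
Level (CPM, linear axis from 0) of 6 members in the ISC- and TA-like clusters, the unnamed cluster led by Ccl20 and Edn2, and the 3 enterocyte-like clusters (Ent) with a leading gene, 1 point per library with its 95% Poisson interval. Hspa5 was highest in the Ms4a18-led cluster in each library (773, 828 and 1031 CPM), whereas Atf4 was highest in TA-like cells.

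The question the design poses is whether loss of Arid3a changed these genes. No member passed the test over all kept cells. The chaperones Hspa5 and Hsp90b1 and the isomerase Pdia4 were lower in both cKO libraries than in WT over all kept cells and in each of the 4 classes tested, and the sensors and transcription factors had no such common direction. Over all kept cells Hspa5 was at 592, 626 and 779.8 CPM. Hsp90b1 was at 431, 498 and 569 CPM and Pdia4 at 49.0, 60.0 and 64.7 CPM. Both cKO libraries lay below WT for each of these genes, and for Hspa5 the cKO libraries lay closer to each other than to WT. The WT library also differed in quality, with 11816 barcodes against 6845 and 6893, of which 79.2% against 66.4% and 75.6% were above the mitochondrial limit. Its kept cells had a median mitochondrial share of 5.52%, against 4.64% and 4.07%. The part of these differences in the levels was not tested.

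In edgeR's quasi-likelihood test with Benjamini-Hochberg adjustment over all 16670 genes, Hspa5 had a log2 fold change of -0.32 ± 0.09 (cKO minus WT, SE; adjusted p = 0.257). Hsp90b1 had -0.25 ± 0.11 (edgeR adjusted p = 0.454) and Pdia4 -0.21 ± 0.13 (edgeR adjusted p = 0.603). The spread of a gene in this test comes from the 2 cKO libraries alone, with 1 residual degree of freedom. It is moderated over the genes tested, so each p-value and SE also draws on the spread of other genes. The WT library is assumed to vary like the cKO libraries. Of the 9 members 0 were called at an adjusted p under 0.05, beside 0.696% of all genes tested. At an unadjusted p under 0.05 there was 1 member, Hspa5, beside 1833 of all genes, and DESeq2 called 0 members. Hspa5 was called when genes were not filtered beyond 1 UMI (edgeR adjusted p = 0.0183, range over its alternatives 0.0183 to 0.354). Without Arid3a cKO 1 the log2 ratio, computed with no test, was -0.28 for Hspa5, -0.15 for Hsp90b1 and -0.07 for Pdia4, and without Arid3a cKO 2 it was -0.38, -0.38 and -0.37, so Arid3a cKO 1 carried more of the difference of Hsp90b1 and Pdia4.

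Xbp1 and Creb3l1 were also lower in both cKO libraries over all kept cells, by less, and were not called. Xbp1 was at 103.6, 107.0 and 111 CPM (log2 fold change -0.04 ± 0.09). Creb3l1 was at 10.36, 12.65 and 12.74 CPM, so that Arid3a cKO 2 was close to WT. Atf4 was at 173, 145 and 159.9 CPM and Ddit3 at 51.3, 34.3 and 38.7 CPM, so WT lay between the cKO libraries for both. Ern1 was at 8.87, 7.10 and 8.47 CPM and Ern2 at 7.81, 10.3 and 9.55 CPM, again with WT between the cKO libraries. For Atf4, Ddit3, Ern1 and Ern2 alike, the gap between the cKO libraries was therefore larger than that of either to WT.

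**Figure D3:**
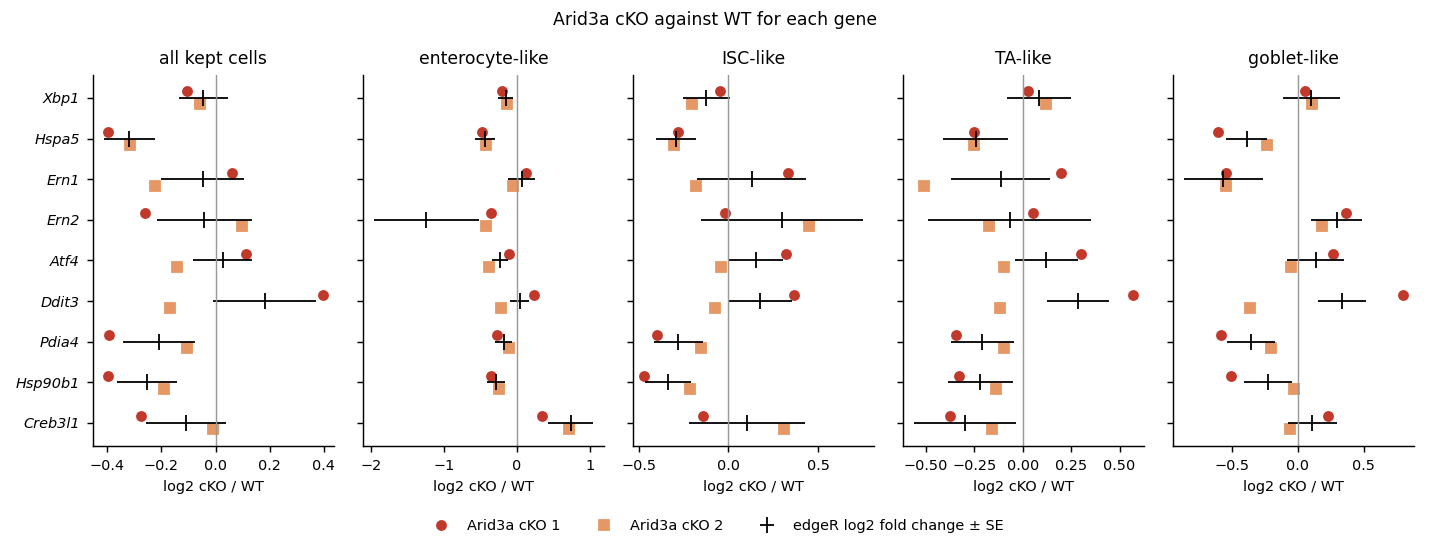
Difference between Arid3a cKO and WT for each gene over all kept cells and in 4 classes, on a log2 axis whose range differs between panels. Each coloured point is 1 cKO library, as the log2 ratio of its CPM to that of WT after adding 1 to both, and the black mark is edgeR's log2 fold change ± SE. Hspa5, Hsp90b1 and Pdia4 lie to the left of 0 in every panel, and 0 of 9 members were called in any of them.

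Within enterocyte-like cells the same 3 genes were lower, with no call. Hspa5 was at 585, 609 and 816 CPM, for a log2 fold change of -0.44 ± 0.14 (edgeR adjusted p = 0.114). Hsp90b1 was at 371, 402 and 475 CPM (-0.29 ± 0.13, edgeR adjusted p = 0.329), and Atf4 was also lower in both cKO libraries (-0.23 ± 0.11, edgeR adjusted p = 0.36). Creb3l1 was higher in both cKO libraries, at 2.97, 4.13 and 2.12 CPM (0.74 ± 0.31, edgeR adjusted p = 0.279). Of 9 members 0 were called, beside 2.41% of 12365 genes, and 4 had an unadjusted p under 0.05, beside 13.5% of all genes. DESeq2 called 0. Hspa5 was called in enterocyte-like cells under 3 alternatives, without scaling by the trimmed mean of M-values (TMM; edgeR adjusted p = 0.012), without the filter (edgeR adjusted p = 0.0252) and with clustering on unintegrated cells (edgeR adjusted p = 0.000545). The range over its alternatives was 0.000545 to 0.19. Hsp90b1 was called in enterocyte-like cells only with unintegrated clustering (edgeR adjusted p = 0.0439, range over its alternatives 0.0439 to 0.9999). In that setting the cluster led by Ms4a18 and Car4 (1139 cells) met no marker rule and was left out. The enterocyte-like cells were thus a different set there.

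In crypt cells the same 3 genes were lower in both cKO libraries. Hspa5 was at 460.0, 453 and 559 CPM in ISC-like cells (-0.29 ± 0.11, edgeR adjusted p = 0.593) and at 625, 624 and 743 CPM in TA-like cells (-0.24 ± 0.17, edgeR adjusted p = 0.944). Hsp90b1 was at 376, 449 and 521 CPM in ISC-like cells (-0.34 ± 0.13, edgeR adjusted p = 0.591). None of 9 members was called in either class (0 in each), beside 0.344% of 12798 genes in ISC-like and 1.09% of 13290 genes in TA-like cells. Unadjusted p-values under 0.05 were seen for 2 members in ISC-like and 0 in TA-like cells, beside 7.05% and 6.65% of all genes, and DESeq2 called 0 in each.

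In goblet-like cells Hspa5 was at 1042, 1347 and 1584 CPM (-0.39 ± 0.16, edgeR adjusted p = 0.327). Pdia4 was at 81.8, 106.6 and 123 CPM (-0.36 ± 0.18, edgeR adjusted p = 0.559). Hsp90b1 was at 586, 815 and 831 CPM, so that Arid3a cKO 2 was close to WT and the difference of -0.22 ± 0.18 rested on Arid3a cKO 1. Without that library it was 0.0019. Without Arid3a cKO 1 the log2 ratio of Hspa5 was -0.20, and without Arid3a cKO 2 it was -0.60. Ern2 was higher in both cKO libraries (0.29 ± 0.19, edgeR adjusted p = 0.765), and Ern1 was lower, at 11.2, 11.2 and 16.7 CPM (-0.56 ± 0.30, edgeR adjusted p = 0.61). Again 0 of 9 members were called, beside 1.23% of 10805 genes, with 2 at an unadjusted p under 0.05, beside 8.76% of all genes, and 0 by DESeq2.

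Whether the difference between cKO and WT itself varied between classes was tested in edgeR with an interaction term against enterocyte-like cells. Each test used the same enterocyte-like sums and had 1 residual degree of freedom. A gene that recurs in several classes is therefore not a repeated independent observation. No member was called in ISC-like (0 of 9, beside 0.0424% of genes), TA-like (0 of 9, beside 0.410%) or goblet-like cells (0 of 9, beside 0.548%). An unadjusted p under 0.05 was seen for 1, 2 and 3 members, beside 5.61%, 6.42% and 6.13% of all genes. Atf4 was among them in each class, with the log2 difference from enterocyte-like cells at 0.38 ± 0.13 in ISC-like (edgeR adjusted p = 0.795), 0.34 ± 0.16 in TA-like and 0.35 ± 0.17 in goblet-like cells. Creb3l1 had a log2 difference of -1.04 ± 0.36 in TA-like (edgeR adjusted p = 0.341) and -0.63 ± 0.30 in goblet-like cells. Ern2 had 1.53 ± 0.55 in goblet-like cells (edgeR adjusted p = 0.357), against few UMIs in enterocyte-like cells. Classes too small for a test went the same way for Hspa5 in part, with 1096, 1029 and 1483 CPM in enteroendocrine-like and 437, 495 and 703 CPM in tuft-like cells, against 213, 177 and 211 CPM in Paneth-like cells, where WT lay between the cKO libraries. Hsp90b1 in tuft-like cells was at 658, 641 and 1025 CPM. Pdia4 did not follow in these small classes, where WT lay between the cKO libraries each time. It was at 72.8, 101.3 and 98.0 CPM in enteroendocrine-like, 52.8, 91.1 and 86.9 CPM in tuft-like and 19.2, 11.4 and 13.8 CPM in Paneth-like cells.

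The barcodes left out for a mitochondrial share above 15% (1937, 2077 and 3206 with at least 1000 genes) are other barcodes of the same libraries, and were examined after the data were seen. Hspa5 was at 444, 453 and 659 CPM there (-0.56 ± 0.17, edgeR adjusted p = 0.302). Hsp90b1 was at 247, 254 and 346 CPM (-0.47 ± 0.16, edgeR adjusted p = 0.459) and Pdia4 at 24.8, 24.5 and 34.9 CPM (-0.50 ± 0.14, edgeR adjusted p = 0.251). For these genes the cKO libraries were nearly equal to each other and below WT. Atf4 was lower as well, at 166, 168 and 223 CPM, whereas Ddit3 was at 70.4, 67.9 and 67.3 CPM. Of 9 members 0 were called, beside 0.491% of 13641 genes, with 6 at an unadjusted p under 0.05, beside 6.69% of all genes, and 0 by DESeq2. These barcodes had a median of 9158, 8959 and 9282.5 UMIs, and their cell classes were not determined.

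**Figure D4:**
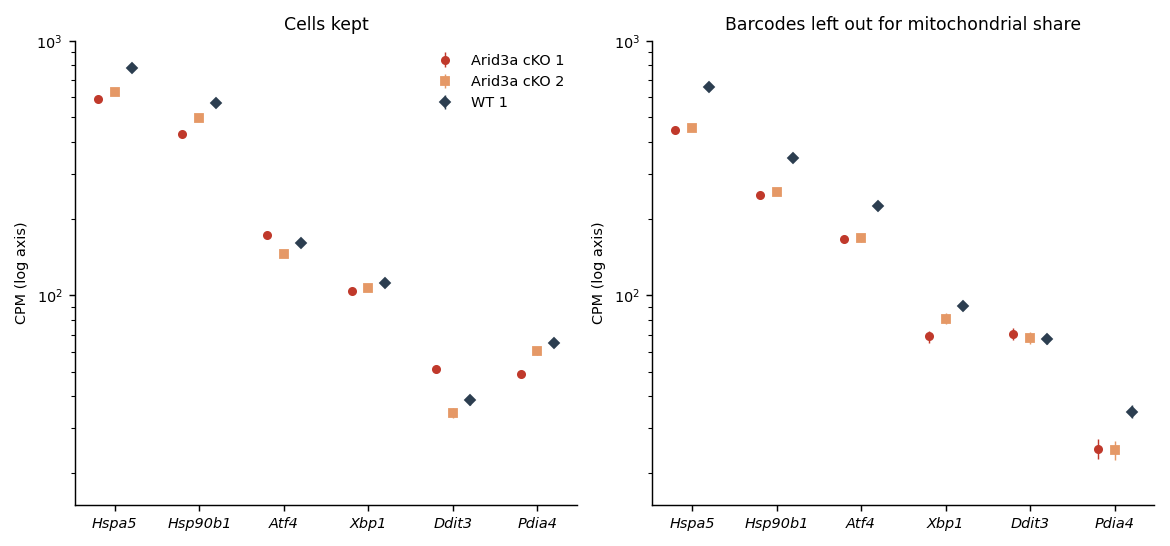
Level (CPM, log axis) of 6 members in the cells kept and in the barcodes left out for their mitochondrial share, 1 point per library with its 95% Poisson interval. WT was above both cKO libraries for Hspa5, Hsp90b1, Pdia4 and Xbp1 in both sets (for Hspa5 592, 626 and 779.8 CPM against 444, 453 and 659 CPM), and for Atf4 only in the barcodes left out.

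The other genes of the response were followed as fixed lists. Among 23 genes of ER folding, 0 were called over all kept cells, and the median log2 fold change was -0.07 beside -0.0029 over all genes. In enterocyte-like cells 3 of 23 were called lower (all genes, 1.39%) and 0 higher, with a median of -0.16 beside 0.0076. Hyou1, a BiP exchange factor, fell from 41.2 CPM in WT to 28.5 and 30.4 CPM (log2 fold change -0.48 ± 0.11, edgeR adjusted p = 0.02). Creld2, an ER isomerase and target of ATF6, fell from 36.7 CPM to 19.9 and 25.7 CPM (-0.68 ± 0.14, edgeR adjusted p = 0.00614). Agr2, a disulphide isomerase of goblet cells, named after its value was seen, fell from 14.6 CPM to 6.26 and 6.94 CPM in enterocyte-like cells (-1.14 ± 0.16, edgeR adjusted p = 0.000119). Its level in goblet-like cells was 10871, 13572 and 11210.0 CPM, and the part of RNA from those cells in the enterocyte value was not tested. Sdf2l1, a further ER chaperone partner, was not called in any class. In ISC-, TA- and goblet-like cells 0 of 23 were called, with medians of -0.10, -0.09 and -0.14. DESeq2 called none of Hyou1, Creld2 and Agr2 in enterocyte-like cells (DESeq2 adjusted p = 0.916, 0.379 and 0.0581).

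Genes of ER-associated degradation moved apart from each other. Of 17 tested in enterocyte-like cells, 1 was called higher (all genes, 1.02%) and 1 lower. Sel1l, the scaffold of the degradation complex, rose from 43.2 CPM in WT to 59.3 and 58.8 CPM (0.46 ± 0.10, edgeR adjusted p = 0.0121). Edem1, which hands misfolded glycoproteins to that complex, fell from 63.2 CPM to 45.6 and 49.75 CPM (-0.40 ± 0.10, edgeR adjusted p = 0.042). Os9, a lectin of the same complex, had 110.4, 113 and 97.0 CPM (edgeR adjusted p = 0.359). DESeq2 called neither Sel1l nor Edem1 (DESeq2 adjusted p = 0.612 and 0.9999). Neither all kept cells nor the other classes had a call among these genes.

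For ER entry, Sec61g, a subunit of the translocon, was called lower in enterocyte-like (24.7, 20.1 and 33.2 CPM, edgeR adjusted p = 0.0152) and ISC-like cells (23.5, 27.0 and 42.0 CPM, edgeR adjusted p = 0.0385), 1 of 19 genes in each, beside 1.39% and 0.242% of all genes. Sec61a1 and Spcs1, the channel subunit and a signal peptidase subunit, were not called. Of the 22 genes of the PERK and ATF4 branch 0 were called over all kept cells. Atf3, a stress-induced transcription factor, was called higher in TA-like cells (408, 208 and 176 CPM, edgeR adjusted p = 0.000496), 1 of 18 genes beside 0.444% of all. It was called higher in goblet-like cells too (405, 320.5 and 208 CPM, edgeR adjusted p = 0.021). With Ddit4, an inhibitor of mTOR signalling named after its value was seen (54.7, 36.0 and 23.8 CPM in goblet-like cells, edgeR adjusted p = 0.000769), 2 of 19 genes were called higher there, beside 0.620%. Arid3a cKO 1 was above Arid3a cKO 2 for each of these 3 values. None of the calls of Sec61g, Atf3 and Ddit4 was made by DESeq2, whose smallest adjusted p for them was 0.297. Cebpb and Ppp1r15a were not called in any class. Among 11 sensor and regulator genes, with Creb3l3, Mbtps1 and Eif2s1 as the named ones, 0 were called anywhere, and the medians lay between -0.08 and 0.0013.

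A list of 15 genes known to respond to cell isolation joined heat shock genes with immediate early genes such as Fos and Jun. Over all kept cells 10 of the 15 had a log2 fold change below 0 and 5 above, with a median of -0.08. Hsph1 and Hsp90aa1 were called lower over all kept cells (2 of 15, beside 0.456% of all genes), and 3 to 5 were called lower in each class (all genes, 1.39% in enterocyte-like, 0.242% in ISC-like, 0.647% in TA-like and 0.611% in goblet-like cells), with 0 higher. Those called were Hsph1 and Hsp90aa1 in every class, Hspa8 in all but ISC-like, Hspa1a in ISC- and goblet-like and Hspa1b in goblet-like cells, named after their values were seen. In enterocyte-like cells Hspa1a was at a log2 fold change of 0.38 ± 0.49 and was not called. DESeq2 also called Hsph1 in every class. It called Hsp90aa1 in ISC- and TA-like but not in enterocyte- or goblet-like cells (DESeq2 adjusted p = 0.9999 and 0.0624). Hspa8 was called by DESeq2 in enterocyte- and goblet-like but not in TA-like cells (DESeq2 adjusted p = 0.0982). Neither Hspa1a nor Hspa1b was called by DESeq2. Hsph1, an HSP110 chaperone, was at 27.8, 35.9 and 114 CPM over all kept cells (-1.80 ± 0.14, edgeR adjusted p = 0.000772). Hsp90aa1 was at 376, 401 and 692 CPM (-0.79 ± 0.09, edgeR adjusted p = 0.00814), and Hspa8 at 769, 911 and 1308 CPM (edgeR adjusted p = 0.0803). Over all kept cells DESeq2 called Hsph1, Hsp90aa1 and also Hspa8 (DESeq2 adjusted p = 0.00208 for Hspa8). The summed level of the 15 genes was 6909, 6605 and 7465 CPM. The part of isolation in the levels of Hspa5, Hsp90b1 and Pdia4 was not tested.

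Markers of other cells were low. The list of 7 plasma cell genes, a cell type rich in Xbp1, summed to 38.1, 33.4 and 31.6 CPM. The defining Tnfrsf17 was at 0 UMIs in each library and Jchain at 0 in both cKO libraries. Only 1 of the 7 genes passed the filter of the test over all kept cells. In goblet-like cells of the cKO libraries Sdc1 alone had UMIs (41 and 69). The 6 genes of other immune cells summed to 1.92, 2.34 and 5.38 CPM, and the 3 endothelial genes to 0.282, 0.447 and 0.335 CPM, with Cdh5 at 0 in each. The 4 stromal genes had 2, 221 and 1 UMIs, and the 221 UMIs of Arid3a cKO 2 all lay in ISC-like cells. Their part in the ISC-like values was not tested.

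The genes whose levels were most like each member over the 18 points, among 5931 or 5932 other genes of at least 20 CPM, are given as a description with no test. For Hspa5 they were Hyou1 (r = 0.95), Sar1a (0.94) and Calr (0.93), and Calr is another ER chaperone. For Xbp1 they were Mia3 (0.96), Tram1 (0.96) and Hgfac (0.94), of which Mia3 helps to export large cargo and Tram1 is part of the translocon. For Ern2 they were Slc12a8 (0.99), the isomerase Txndc5 (0.98) and Tff3 (0.97), a peptide of goblet cell mucus. For Creb3l1 they were Rap1gap (0.99), the mucin glycosyltransferase Gcnt3 (0.98) and Rab27a (0.97), a GTPase of secretory granules. Ern1 was most like Fam46a (0.95), the ER calcium pump Atp2a2 (0.94) and Fam63b (0.93). Pdia4 was most like Serinc2 (0.93), Rpn1 (0.90) and Elovl7 (0.90), and Hsp90b1 like Srebf2 (0.88), Dctn5 (0.87) and Pdia4 itself (0.86). For Atf4 they were Tubb2a (0.93), Elovl7 (0.92) and Tpm4 (0.92), and for Ddit3 Dusp6 (0.90), Baiap2l2 (0.89) and Tmco3 (0.88). Among the members themselves r was lowest between Ddit3 and Hsp90b1 (0.17), while it was 0.76 between Ddit3 and Hspa5.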

How the data were processed

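Single-cell RNA sequencing was analysed in 3 libraries. The authors counted reads with CellRanger 5.0.0 (per the file headers), and deposited unnormalized UMI counts for each gene and barcode. The submitters' processing notes list only the human builds GRCh38 and hg19, although the deposited identifiers are of mouse, and the mouse build of that step is not given in the sources used here. Of 51912 gene identifiers 99.5% were found in GENCODE M21 (GRCm38), from which coordinates were taken by identifier.

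Cells with at least 1000 genes and at most 15% mitochondrial UMIs were kept (5594 of 25554 barcodes). Integration and clustering used Seurat 5.3.0 in R 4.3.3 (canonical correlation analysis, 3000 features, 2000 for principal components, 30 components, resolution 0.3), leaving out 102 genes of the response. Clusters were named from fixed markers by a scoring rule set after the clusters had been seen. Doublets were kept, and Scrublet in scanpy 1.11.5 marked 1.97% of cells. About the top 5% of scores per library (262 cells, ties at the limit kept) were removed as an alternative. UMIs were summed per library and class. edgeR 4.0.16 (quasi-likelihood, TMM, filterByExpr, Benjamini-Hochberg adjustment) compared Arid3a cKO with WT in classes of at least 100 cells per library, and DESeq2 1.42.0 was an alternative. The replicates differ by a chi-square of 40.1 per gene over 12596 genes and were counted as separate samples. On simulated data for all kept cells (16670 genes, 200 changed) the test recovered 66.5% of 2-fold and 79.5% of 4-fold changes, with 9 and 6 unchanged genes called. Changes below 2-fold, such as those of Hspa5, Hsp90b1 and Pdia4, were not simulated, so their recovery is not known.

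The members and the lists were chosen with earlier results of these data known. Named genes are the 9 members, from each list the 3 called genes with the largest change over all kept cells (where fewer than 3 were called, the 3 with the largest change at 20 CPM or more), and the 3 genes most like each member. Ero1a, Ero1b and Ccn3 were matched by their older symbols. Log ratios per library use a pseudocount of 1 CPM. UMI levels were not compared between genes.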

Additional observations from a re-analysis of the deposited data

How the results depend on the processing

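No paired analysis was possible because just 1 replicate number occurs in both groups. Of 494 values recomputed under 14 alternative settings for 65 results, 435 were the same in direction and call, or moved by less than the spread, 46 moved by more, 5 passed the threshold and 8 changed sign in a test. The number of members called over all kept cells rose from 0 to 1 without the filter on low counts. In enterocyte-like cells it rose to 1 without the filter, 1 without TMM scaling and 2 without integration. The last setting left the cluster led by Ms4a18 and Car4 out of the enterocyte-like cells. The number of genes called moved more. Without the filter it was 677 over all kept cells (116 before) and 178 in ISC-like cells (44 before). With DESeq2 it was 72 in enterocyte-like (298 before), 19 in ISC-like, 30 in TA-like (145 before) and 17 in goblet-like cells (133 before). At resolution 0.8 it was 168 in enterocyte-like and 90 in ISC-like cells, and without integration 584 and 103. Without the highest doublet scores it was 496, 127 and, in goblet-like cells, 247, and without TMM 8 in goblet-like cells. In these tests, differences that were not called changed sign for Atf4 over all kept cells (-0.0092 without TMM, -0.051 with wider cell limits), Ern2 over all kept cells (0.011 with wider limits), Ddit3 in enterocyte-like cells (-0.062 without integration), Creb3l1 in ISC-like cells (-1.37 at resolution 0.8, -0.44 without integration), Ern2 in ISC-like cells (-0.0044 without integration) and Ern1 in TA-like cells (0.078 at resolution 0.8). The cause was not tested. A further 25 uncalled differences computed without a test changed sign. Of these, 20 did so when 1 cKO library was left out (among them Hsp90b1 in goblet-like cells, 0.0019). The other 5 did so under other weightings or cell selections. Among them was Creb3l1 with equal class weights (0.19), where Paneth-like and unnamed cells were left out. At resolution 0.8 the smallest ISC-like group had 96 cells. The count of members higher in goblet-like than enterocyte-like cells was 9 under all 7 alternatives, leaving out each library included. Precision is limited by the number of libraries and, for Ern1, Ern2 and Creb3l1 outside goblet-like cells, by few UMIs.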

Other observations

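Among all genes, 37 had the ER stress response element in a promoter of the same window, a group defined after the data were seen and not independent of Hspa5 and Hsp90b1, which belong to it. Of these, 30 were matched to the files and 19 were tested over all kept cells. Their median log2 fold change was -0.19, with 15 of 19 below 0, beside -0.0029 and 50.6% below 0 over all genes. In enterocyte-like cells the median was -0.27, with 11 of 13 below 0, beside 0.0076 and 48.8% over all genes. In goblet-like cells it was -0.26, with 11 of 14 below 0, beside 0.0053 and 49.1%. It was -0.18 in ISC-like (11 of 15 below 0) and -0.15 in TA-like cells (12 of 16), beside 50.2% and 49.9% of all genes below 0. Creld2 was called lower in enterocyte-like cells (1 of 13, beside 1.39% of all genes). Over all kept cells Xlr3a was called higher (1 of 19, beside 40 of 16670 genes). Both were named after their values were seen. In the ER folding list 5 of 19 genes with a promoter held the element, namely Calr, Canx, Pdia6, Dnajc3 and Creld2. In the ER-associated degradation list it was 2 of 16, namely Syvn1 and Derl3. It was 0 of 14 in the ER entry list, 0 of 20 in the PERK and ATF4 branch and 0 of 10 among sensors.

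Weighting the named classes other than Paneth-like equally in each library, with unnamed cells left out, gave a log2 difference of -0.42 for Hspa5. Leaving only the goblet-like cells out of all kept cells gave -0.34. Both were computed without a test. The difference of Creb3l1 was 0.19 with these equal class weights, against -0.11 in the sum of all kept cells, a different set of cells. The tuft-like part of the Creb3l1 value rested on 27, 19 and 17 UMIs.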
